A study of Mus musculus with 9 samples.

Results

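Collagens are the main structural proteins of the extracellular matrix, and the 34 collagen genes described here are those of 42 on the array that gave a signal in at least 3 of its 9 hybridisations. A collagen gene was any gene whose symbol is Col, a number, a and a number. Each was represented by the probe set, the group of probes that reads 1 transcript, with the highest mean log2 intensity over the 9 arrays among probe sets assigned to a single gene. To pass, that probe set had to lie above the 40th percentile of its own array on at least 3 arrays. The whole table held 13320 genes that passed in the same way.

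Every collagen is a trimer of chains wound into a triple helix. Fibrillar collagens (types I, II, III, V, XI, XXIV and XXVII) assemble into the banded fibres of connective tissue, cartilage and vitreous, and type IV forms the sheet-like network of basement membranes. FACITs, the fibril-associated collagens with interrupted triple helices such as types IX, XII and XIV, bind to the surface of fibres. The remaining class, called other here, holds the beaded filaments of type VI, the short chains of type VIII, transmembrane types such as XIII, XVII, XXIII and XXV, type VII of anchoring fibrils and type XVIII of basement membranes, from which endostatin is cut. In the eye, type IV lines the inner limiting membrane and the vessels of the retina, and types II and IX are fibre components of the vitreous.

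Mouse cells of 3 groups were compared, with 3 arrays in each, which the series' design text calls biological repeats. Both groups of retinal progenitor cells derived from embryonic stem cells (ESC-RPCs) came from the 46C line, which was made by gene targeting in E14Tg2a.IV cells, so they rest on 1 cell line. Its cells grew as embryoid bodies for 3 days with SB431542, an inhibitor of TGF-beta family receptors, and were then plated on Matrigel, itself an extract of basement membrane. At day 7 the Sox1-positive fraction (35.8% of cells) was collected by flow sorting and cultured in N2 medium. That medium held DAPT at 10 µM, which blocks the gamma-secretase that activates Notch, and bFGF at 20 ng/ml. In the first group recombinant DKK1, which binds Wnt co-receptors and blocks their signal, was added at 1 ng/ml for 1 day, and the second group had none. By the design text, untreated cells stand for an early stage and treated cells for a more mature one. Primary RPCs, the remaining group, were cultured from dissociated neural retina, taken from C57 pups at postnatal day 1. The cell source, the strain and the culture therefore differ together between ESC-RPCs and primary RPCs and cannot be told apart. Nothing in the labels says which animals or cultures each array came from. In such bulk RNA, fewer cells of a type and less RNA per cell cannot be told apart either.

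Values below are MAS5 intensities, given in linear units for replicates 1, 2 and 3 in that order. A level of 1 gene is compared with the same gene on other arrays. Sums over marker lists are compared between arrays in the same way, and the brightest probe sets weigh most in them. A log2 difference carries its standard error from limma, and a gene is called where its p-value, adjusted by the Benjamini-Hochberg method over all 13320 genes, was below 0.05. The 40th percentiles of the arrays, used here as the level under which a signal is dim, were 44.7 to 52.9. Primary replicate 2 had the highest of them, and its median log2 intensity was 6.60 against 6.38 to 6.43 on the other 8 arrays. The 3-prime over 5-prime signal of Actb, a measure of RNA integrity, was 1.32 to 1.37 on ESC-RPC arrays and 1.22 to 1.26 on primary arrays. That of Gapdh was 0.745 to 0.793 on ESC-RPC arrays and 0.725 to 0.757 on primary arrays, which overlap. Among retinal progenitor markers Pax6 measured 1087 to 1510.3 in ESC-RPCs against 8847 to 10898 in primary RPCs. Rax was dim on all 3 DKK1-treated arrays, at 1.66 to 30.9, against 3185 to 4996 in primary RPCs. No marker of this list, Rax included, was dim on all untreated arrays. Of the 7 that passed, 5 were lower and 2 higher in untreated ESC-RPCs than in primary RPCs, where 26.9% and 26.1% of all genes were. Sox1, on which the ESC-RPCs were sorted, was dim on every primary array.

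Of the 42 collagen genes, 10 of 11 fibrillar, 4 of 6 basement membrane, 8 of 9 FACIT and 12 of 16 other members passed. The 8 that did not pass were Col4a3, Col4a4, Col6a4, Col6a5, Col9a2, Col10a1, Col15a1 and Col24a1. The members nearest the limit inside it were Col8a2 and Col17a1, each above the percentile on 3 arrays. Just outside it lay Col9a2 with 2 such arrays and Col4a4 with 1. Col12a1, Col14a1, Col19a1, Col13a1, Col8a1 and Col8a2 passed through ESC-RPC arrays only and Col17a1 through primary arrays only. For these 7 the filter itself favoured a difference in that direction, though it did not force a call. The remaining 27 lay above the percentile on at least 1 array of each source.

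**Figure D1:**
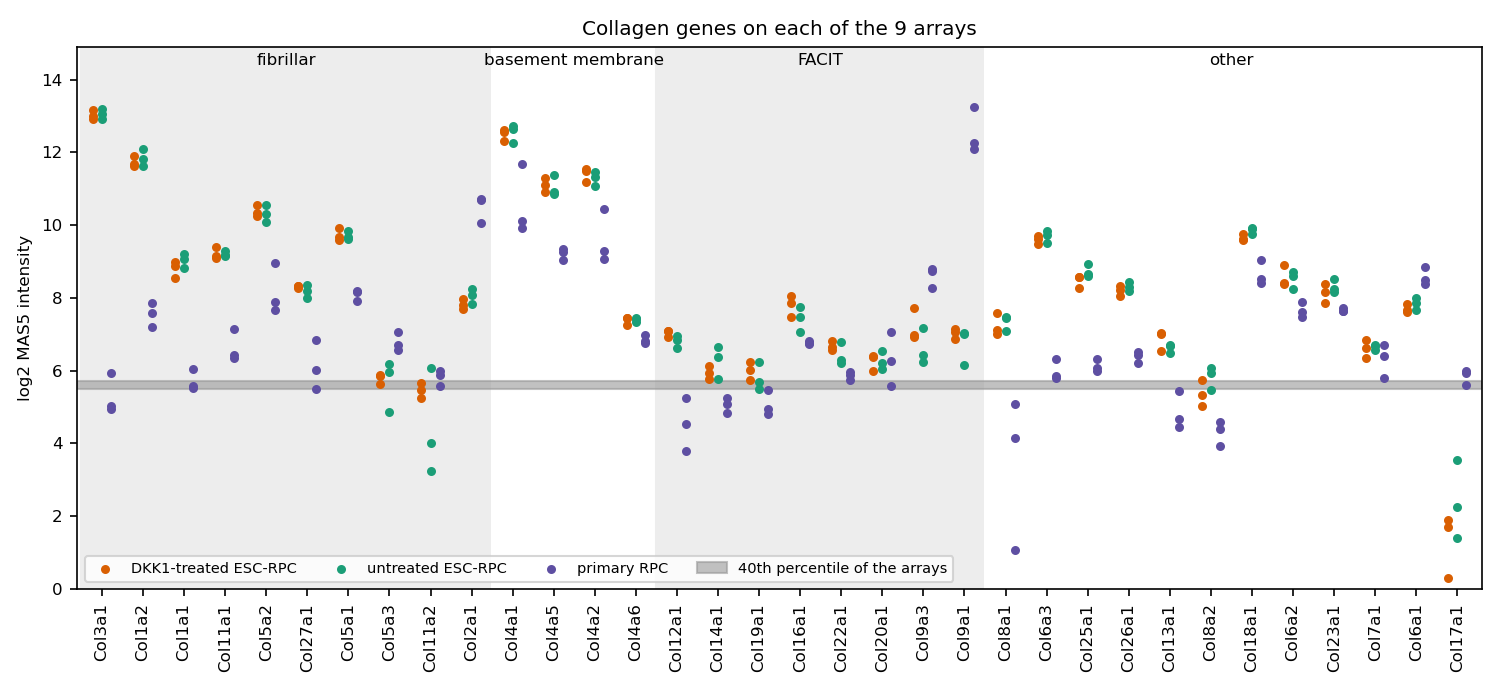
Log2 MAS5 intensity of the 34 collagen genes that passed (horizontal axis, by class) on each of the 9 arrays, 1 point per array, with the range of the arrays' 40th percentiles as a band. The points of both ESC-RPC groups lie together for most members, while primary points lie lower for Col3a1, Col1a2 and Col4a1 and higher for Col2a1 and Col9a1.

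Untreated ESC-RPCs were first compared with primary RPCs, the group that the series included as its negative control for growth and tumour-related genes. Most collagens were higher in ESC-RPCs, with Col3a1, Col1a2 and Col6a3 among the largest differences, and a few, led by Col9a1 and Col2a1, were lower. In limma 29 of the 34 members that passed were called, 23 higher and 6 lower, where 53.0% of all genes were called, 26.1% higher and 26.9% lower. The median log2 difference of the members was 1.36, or 0.95 with members dim throughout a group set at their bounds, against -0.0068 over all genes. Among the 27 members above the percentile in both sources, 18 were higher and 5 lower. Of all genes meeting that condition 24.2% were higher and 27.0% lower. With no filter on dim signals, all 42 collagen genes gave 23 higher and 8 lower, where 19.2% and 19.5% of all 18193 genes were called.

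By class, 7 fibrillar members were higher, 2 were lower and 1 was not called. All 4 basement membrane members that passed were higher. Of the FACITs 3 were higher, 2 lower and 3 not called, and of the other collagens 9 were higher, 2 lower and 1 not called. The median log2 differences of the classes were 2.11, 1.76, 0.61 (0.40 with bounds) and 1.36 (0.95 with bounds). These are counts of 4 to 12 genes, and no test between the classes was run.

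Types I and III, which form the fibres of loose connective tissue, showed the largest rises among the fibrillar chains. Col3a1, the only chain of type III, measured 8474, 9368 and 7779.7 in untreated ESC-RPCs against 30.9, 61.2 and 32.5 in primary RPCs. It was 216-fold higher (log2 difference 7.75 ± 0.22, limma adjusted p = 3.48e-09). On 2 of the 3 primary arrays Col3a1 lay below the 40th percentile, so the size of this difference rests on signals near background. A second probe set of Col3a1 gave a log2 difference of 7.08. Col1a2, a chain of type I, measured 3636, 4336 and 3138 against 147, 194 and 231 in primary RPCs, all well apart (log2 difference 4.29 ± 0.17, limma adjusted p = 2.66e-08). Col1a1, the partner chain, measured 540.0, 586 and 452 against 47.4, 65.9 and 46.1 (log2 difference 3.32 ± 0.19), with primary signals just above the 40th percentile.

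Because Col3a1 and Col1a2 carried the largest fibrillar differences, and Col9a1 the largest fall, the 250 bases before their start sites are shown, from RefSeq on GRCm38.p6, 5′ to 3′ on the strand of the gene, which is plus for all of them. Capitals mark exact matches, on either strand, to 3 promoter motifs: TATAAA (the TATA box), CCAAT (the CCAAT box) and GGGCGG (the GC box). The Col3a1 sequence lies at chr1:45311288-45311537, that of Col1a2 at chr6:4505368-4505617, and those of 2 annotated starts of Col9a1 at chr1:24177360-24177609 and chr1:24194953-24195202.
Col3a1: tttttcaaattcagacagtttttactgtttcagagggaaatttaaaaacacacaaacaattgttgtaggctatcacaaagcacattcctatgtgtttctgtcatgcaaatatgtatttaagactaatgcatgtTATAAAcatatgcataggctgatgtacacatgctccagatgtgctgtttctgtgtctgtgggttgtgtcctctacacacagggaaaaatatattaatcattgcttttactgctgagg
Col1a2: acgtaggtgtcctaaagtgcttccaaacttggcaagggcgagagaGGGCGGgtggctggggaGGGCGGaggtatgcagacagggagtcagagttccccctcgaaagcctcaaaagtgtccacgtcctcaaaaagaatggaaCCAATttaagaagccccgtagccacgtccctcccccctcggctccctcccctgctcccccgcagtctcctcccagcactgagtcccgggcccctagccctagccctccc
Col9a1 start 1: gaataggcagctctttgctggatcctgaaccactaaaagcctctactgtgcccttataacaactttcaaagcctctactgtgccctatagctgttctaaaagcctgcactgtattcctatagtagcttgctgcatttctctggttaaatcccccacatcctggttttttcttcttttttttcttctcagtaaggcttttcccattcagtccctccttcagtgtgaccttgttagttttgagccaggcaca
Col9a1 start 2: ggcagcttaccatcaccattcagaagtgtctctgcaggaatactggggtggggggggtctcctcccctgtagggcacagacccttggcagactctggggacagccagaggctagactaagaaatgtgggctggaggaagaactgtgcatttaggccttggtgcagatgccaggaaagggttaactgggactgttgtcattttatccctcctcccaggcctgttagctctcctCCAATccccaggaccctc

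The Col3a1 window is poor in G and C (35.2%) and holds TATAAA 117 bases before the start. That of Col1a2 has 62.0% G and C, with CCAAT at 109 bases and GGGCGG at 205 and 188 bases before the start. The first Col9a1 window matched none of the motifs, and the second held CCAAT 18 bases before the start. The probe sets do not tell which Col9a1 start was used. Over 36 promoters of 33 collagen genes, 5 held TATAAA (13.9%, against 12.4% of 32851 promoters of the same length), 13 held CCAAT (36.1% against 33.8%) and 21 held GGGCGG (58.3% against 32.7%). The 33 genes include some that did not pass, such as Col9a2 and Col24a1. The median share of G and C over the 32851 windows was 52.4%, and the part of base content in the share with GGGCGG was not tested. A match is a description of letters and not of binding.

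The chains of types V and XI, which seed and limit fibre thickness, moved in both directions. Col5a2 measured 1265, 1514 and 1091 in untreated ESC-RPCs against 238, 202 and 497 in primary RPCs (log2 difference 2.15 ± 0.28). Col5a1 measured 789.5, 917 and 817 against 295, 288 and 240.0 (1.62 ± 0.13). Col11a1 measured 567, 579 and 625 against 86.5, 81.4 and 142 (2.56 ± 0.20). These 3 chains were higher on every ESC-RPC array than on any primary array. Col27a1, a fibrillar chain known from cartilage, was also higher, at 325, 254 and 289.8 against 45.0, 64.3 and 114 (2.06 ± 0.28). Col5a3, another type V chain, fell by 1.11 ± 0.35 (limma adjusted p = 0.0204), from 135, 94.8 and 105 to 29.0, 62.4 and 72.9. In limma that call was lost without untreated replicate 1 (adjusted p = 0.0623) and without primary replicate 1 (adjusted p = 0.0697).

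Col2a1, the chain of type II in cartilage and vitreous, went the other way from types I and III. It measured 273, 301 and 227 in untreated ESC-RPCs against 1067, 1674 and 1653 in primary RPCs, with no overlap (log2 difference -2.44 ± 0.18, limma adjusted p = 2.29e-06). Col11a2, a partner of type II in cartilage, was not called, at 9.51, 66.8 and 16.0 against 62.9, 58.8 and 47.3 (log2 difference -1.37 ± 0.61, adjusted p = 0.0833). Untreated replicate 2 stood above the primary arrays and the other 2 lay far below them. Without it the difference was -2.18 (limma adjusted p = 0.00293), and without untreated replicate 1 it was -0.78.

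**Figure D2:**
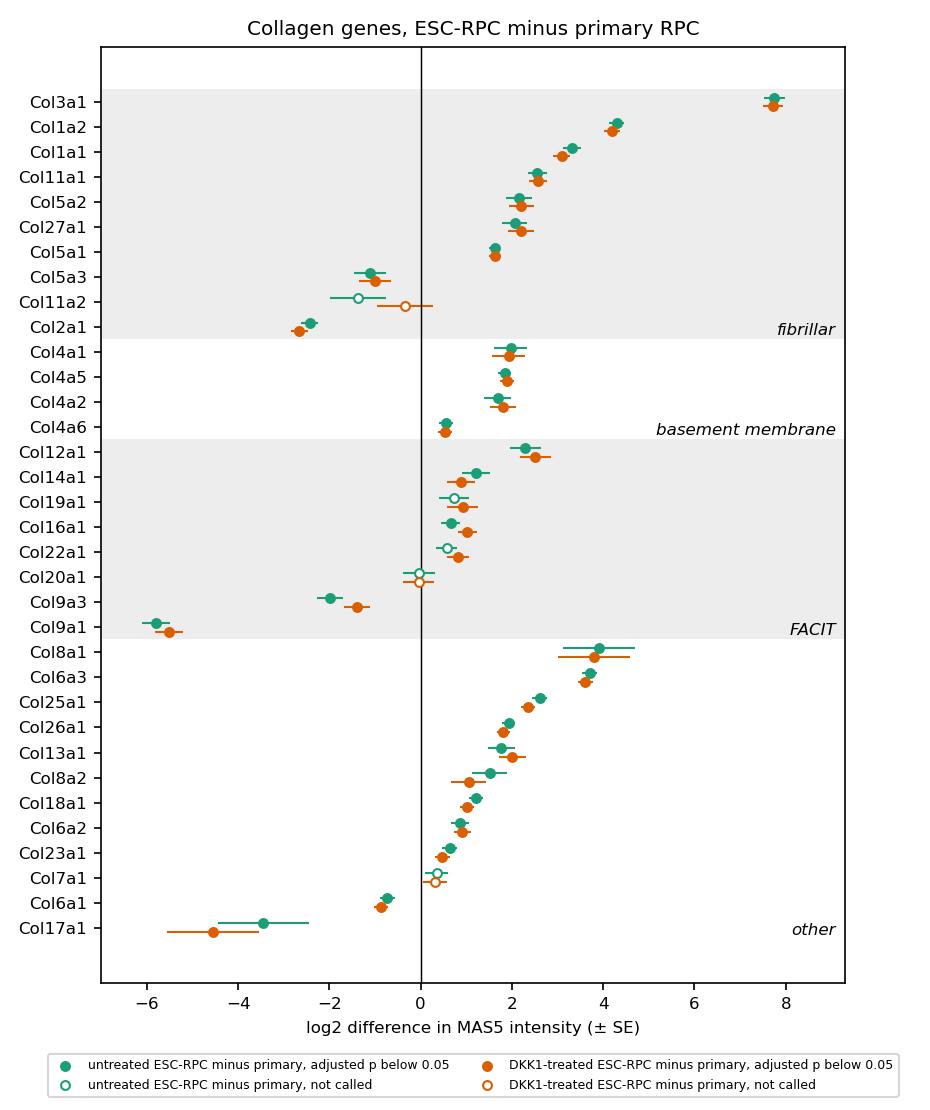
Log2 difference in MAS5 intensity of each collagen gene that passed, untreated or DKK1-treated ESC-RPCs minus primary RPCs (horizontal axis), with bars of 1 SE from limma and filled points where the adjusted p was below 0.05. The same primary arrays serve both comparisons; Col3a1 lies farthest right at 7.75 and Col9a1 farthest left at -5.80 for untreated cells.

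The 4 chains of type IV, the scaffold of basement membranes, that passed were higher in ESC-RPCs. Col4a1 measured 6351, 6726 and 4913 in untreated ESC-RPCs against 1100.2, 3267 and 973 in primary RPCs (log2 difference 1.97 ± 0.36, limma adjusted p = 0.00111). Col4a2, which joins Col4a1 in the common type IV trimer, measured 2571, 2825 and 2142 against 628, 1383 and 538 (1.69 ± 0.29). In both genes primary replicate 2 stood above the other primary arrays but below every ESC-RPC array. Without it the log2 differences were 2.52 and 2.10. Col4a1 and Col4a2 lie head to head on opposite strands of chromosome 8, and their RefSeq starts on GRCm38.p6 overlap by 22 bases (chr8:11312805-11312826).

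The X-linked pair Col4a5 and Col4a6 are the other neighbouring type IV genes that passed. Col4a5 measured 1861, 1939 and 2666 against 645, 530.1 and 615 in primary RPCs (log2 difference 1.84 ± 0.15), and here primary replicate 2 was the lowest of its group. Col4a6 measured 162, 176 and 172 against 109, 126 and 113 (0.55 ± 0.15, limma adjusted p = 0.0107). Col4a3 and Col4a4, the chains of mature kidney and eye membranes, were dim on most arrays and were not tested. Their highest signals were on primary replicate 2, at 47.4 and 57.1. In the fit with no filter their log2 differences, untreated minus primary, were -2.41 and -1.68, opposite in sign to the chains that passed. In that fit 1 basement membrane member was called lower. Both genes lie near background, which limits the size of these differences.

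Primary replicate 2 also stood apart in some genes of vessels and their wall cells, chosen after their values were seen. Cdh5, an endothelial cadherin that did not pass the filter, measured 96.9 there against 29.9 and 49.1 on primary replicates 1 and 3. The 40th percentile of primary replicate 2 was itself the highest, at 52.9 against 44.7 and 44.9 for replicates 1 and 3. Cldn5, a tight junction gene of vessels, measured 379 against 209 and 219.8, and Tagln, a smooth muscle and pericyte gene, 2153 against 617 and 501. Timp3, an inhibitor of matrix proteases, measured 1226 against 388 and 227. The endothelial genes Esam (107, 188 and 92.7) and Emcn (32.1, 70.9 and 43.1) were also highest on primary replicate 2. Other such genes did not follow it. Acta2, a contractile gene of the same wall cells, was lowest there, at 1923 against 2275 and 2206. The endothelial genes Pecam1 (45.9, 50.5 and 55.8) and Flt1 (66.4, 52.0 and 12.3) had primary replicate 2 in the middle. Summed over the 9 endothelial markers primary replicate 2 was the lowest of its group, at 6077 against 6215 and 7808. That order is the order of Kdr, a VEGF receptor, which made 5186 of the sum there against 5689 and 7316. The sum therefore does not speak for the dimmer markers. Tek and Tie1 were dim on all 9 arrays. The part of these cells in the values of Col4a1 and Col4a2 was not tested.

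**Figure D3:**
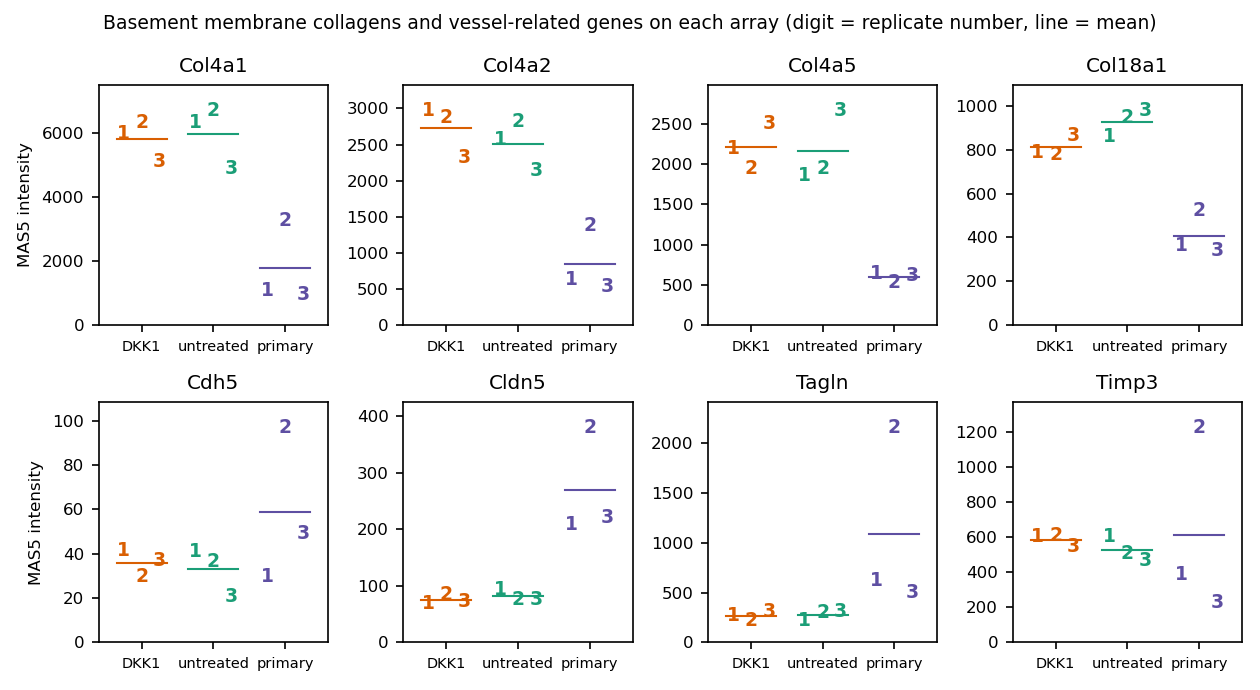
MAS5 intensity (vertical axes, linear, from 0) of 4 basement membrane collagens and 4 genes of vessels, their wall cells or matrix turnover in the 3 groups, with the replicate number as the symbol and a line at the group mean. Primary replicate 2 is the highest primary array for Col4a1 (3267), Col4a2, Col18a1, Cdh5, Cldn5, Tagln and Timp3, and the lowest for Col4a5.

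FACITs held the largest fall of the family. Col9a1, a chain of type IX, measured 129.8, 70.7 and 131 in untreated ESC-RPCs against 4886, 9659 and 4404 in primary RPCs. It was 55.7-fold lower (log2 difference -5.80 ± 0.31, limma adjusted p = 1.73e-07), and -5.45 without primary replicate 2. A second probe set gave -3.93. Col9a3, which joins Col9a1 in type IX, fell by 1.99 ± 0.29, from 310.0, 429 and 443 to 144, 75.4 and 86.6. Col9a2, the remaining chain, did not pass and measured 18.6, 3.62 and 27.5 against 24.5, 95.6 and 87.1.

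The FACITs that were higher were nearer to background. Col12a1, of tendon and dense connective tissue, measured 116, 125 and 98.8 and was dim on all primary arrays, so that it was at least 2.38-fold higher. Col14a1, its relative, measured 54.6, 100.2 and 82.7 and was at least 1.62-fold higher. Col16a1 measured 178, 214 and 134 against 113, 108 and 107 (log2 difference 0.65 ± 0.21, limma adjusted p = 0.0241). The Col16a1 call was lost without untreated replicate 1, untreated replicate 2 or primary replicate 3 (adjusted p = 0.0691, 0.1002 and 0.0524). Col19a1, Col20a1 and Col22a1 were not called. Col19a1 (log2 difference 0.73, limma adjusted p = 0.0895) was called without primary replicate 2 (0.92, adjusted p = 0.0442) and in the fit without an intensity trend (adjusted p = 0.0393).

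For Col22a1, of tissue junctions, the probe sets disagreed. The one chosen by mean signal gave 0.57 ± 0.23 (limma adjusted p = 0.0595), and the other 2, each above the percentile on 6 arrays, gave log2 differences of 3.00 and 4.05. Col22a1 was called with the mean of the probe sets (2.54), under a 60th percentile filter, which takes another probe set (4.05, adjusted p = 0.00426), and without an intensity trend (adjusted p = 0.0177). In all, 19 members had several probe sets that passed, and the sign was the same for 17 of them. The exceptions were Col19a1 and Col23a1, and the call of Col23a1 was lost with the mean of its probe sets (0.27, adjusted p = 0.0803).

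Among the other collagens, the chains of type VI moved apart. Col6a3 measured 913, 855 and 726 in untreated ESC-RPCs against 55.6, 80.0 and 57.7 in primary RPCs (log2 difference 3.70 ± 0.16, limma adjusted p = 5.04e-08). Col6a2 measured 419, 392 and 302 against 177, 237 and 197 (0.86 ± 0.19). Col6a1, which shares the type VI monomer with both and neighbours Col6a2 on chromosome 10, was lower, at 233, 254 and 205 against 359, 462 and 332 (-0.73 ± 0.16, limma adjusted p = 0.00292). The 3 chains each had groups that did not overlap. Col6a1 and Col6a2 lay outside the rule for per-array values and were chosen after their values were seen.

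Col25a1, a transmembrane collagen of neurons, measured 389, 485 and 407 against 63.4, 67.3 and 79.4 (log2 difference 2.61 ± 0.16). Col26a1 measured 316, 349.5 and 293 against 86.4, 74.3 and 91.9 (1.93 ± 0.15). Col18a1, the source of endostatin, measured 858, 945 and 979.6 against 364, 522 and 338 (1.21 ± 0.15). In these 3 genes no primary array reached an ESC-RPC array. Col8a1, a short chain of vessel and corneal membranes, measured 137, 175 and 178 and was dim on all primary arrays, at 33.6, 2.10 and 17.9. It was at least 3.42-fold higher, and its fitted log2 difference of 3.91 was 2.73 without primary replicate 2 and 4.73 without primary replicate 1. Col13a1 and Col8a2 were at least 2.07-fold and 1.20-fold higher, and Col7a1 was not called.

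Col17a1, a transmembrane collagen of epithelial attachment, was the member that passed through primary arrays alone. It measured 63.9, 61.4 and 48.5 in primary RPCs and was dim in untreated ESC-RPCs, at 2.61, 4.76 and 11.7, so that it was at least 1.23-fold lower. Its call (adjusted p = 0.0141) was lost without primary replicate 1 (adjusted p = 0.0576) or primary replicate 2 (adjusted p = 0.0563).

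The second comparison set DKK1-treated ESC-RPCs against the same 3 primary arrays, so its values are not independent of those above. In limma 31 members were called, 25 higher and 6 lower, where 52.8% of all genes were called, 26.0% higher and 26.8% lower. The median log2 difference was 1.04 against -0.0077 over all genes. Among the 27 members above the percentile in both sources, 19 were higher and 5 lower, against 24.0% and 26.9% of such genes. The classes gave 7 higher and 2 lower of 10 fibrillar, 4 higher of 4 basement membrane, 5 higher and 2 lower of 8 FACIT, and 9 higher and 2 lower of 12 other members.

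Col3a1 measured 7707, 9275 and 8131 in DKK1-treated cells (log2 difference to primary RPCs 7.72 ± 0.22) and Col1a2 3274, 3835 and 3172 (4.19 ± 0.17). Col4a1 measured 5994, 6337 and 5119 (1.93 ± 0.36), and Col6a3 718, 831 and 784 (3.61 ± 0.16). In each of these genes every treated array lay above every primary array. Col9a1 measured 133, 117 and 141 (-5.51 ± 0.31), and Col2a1 225, 249 and 208 (-2.66 ± 0.18), both below every primary array. Col19a1 and Col22a1, close to the threshold in untreated cells, were called here at 0.92 and 0.82 (limma adjusted p = 0.0381 and 0.0124). Whether their 2 differences to primary RPCs differ is the comparison of the ESC-RPC groups, in which neither was called. Col19a1 was dim on every primary array, so it was at least 1.35-fold higher. The calls in DKK1-treated cells of Col5a3, Col14a1, Col19a1, Col23a1 and Col8a2 depended on single arrays and on the processing. In limma Col5a3 lost its call without any 1 of DKK1-treated replicates 1, 2 and 3 or primary replicates 1 and 3 (adjusted p = 0.0599 to 0.105). Col14a1 lost it without any 1 of DKK1-treated replicates 1, 2 and 3 or primary replicates 1 and 2 (adjusted p = 0.0542 to 0.103). Col19a1 lost it without DKK1-treated replicate 1 or 2, untreated replicate 1, or primary replicate 1 or 3 (adjusted p = 0.0536 to 0.121). Col23a1 lost it without DKK1-treated replicate 2 or 3, or primary replicate 1 or 3 (adjusted p = 0.0628 to 0.119). Col8a2 lost it without DKK1-treated replicate 1 or 2, untreated replicate 1 or 2, or primary replicate 3 (adjusted p = 0.0552 to 0.131). In limma the Col5a3 call was also lost with quantile normalisation (adjusted p = 0.0549), arrays set to one median (0.0518) or no filter (0.0514). Those of Col14a1 and Col19a1 were lost with no filter (0.0526 and 0.056) and with only the 6 arrays compared (0.0546 and 0.0577). The fit of 6 arrays also ended the calls of Col23a1 (0.0524) and Col8a2 (0.0901), and the mean of probe sets those of Col19a1 (0.102) and Col23a1 (0.106). The fitted difference of Col8a2 was 1.05, but the gene was dim on all primary arrays and on 2 of 3 treated ones, so no bound on its fold is given.

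The last comparison was of DKK1-treated with untreated ESC-RPCs, that is, of 1 day of DKK1. No collagen gene was called, and none of the 34 had an unadjusted p below 0.05 in the limma fit of 9 arrays. In the same fit 0% of the 13320 genes were called, and 308 of them (2.31%) had an unadjusted p below 0.05. The median log2 difference of the members was -0.0156 against -0.0018 over all genes. The groups did not overlap for 1 member, Col25a1, against 12.0% of all genes. The class medians were 0.02 for fibrillar, 0.01 for basement membrane, 0.24 for FACIT and -0.13 for other members.

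Arrays of the same replicate number deviated together between the ESC-RPC groups, though weakly (r = 0.123, 0.195 and 0.318), so differences within the 3 pairs were also read. Arrays of unlike number gave r of -0.234 to 0.068. The labels do not state such pairs, so the paired results rest on a pairing drawn from the same values. The sign was the same in 3 of 3 pairs for 12 of the 34 members, 5 higher and 7 lower, against 37.4% of all genes. Col1a1, Col2a1, Col18a1 and Col25a1 were among those lower in every pair, and Col4a2, Col16a1, Col9a1 and Col12a1 among those higher. With the replicate number as a block on the 6 ESC-RPC arrays, no member was called, where 0.488% of all genes were. In that paired limma fit 6 members had an unadjusted p below 0.05, against 15.0% of all genes, and the smallest adjusted p of a member was 0.182, that of Col18a1.

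The 95% confidence intervals of these differences are given from both limma fits, not adjusted over genes. The fit of 9 arrays takes its spread from the primary arrays too, while the paired fit uses the 6 ESC-RPC arrays alone. Col3a1 had a log2 difference of -0.03, with an interval of -0.12 to 0.06 in the paired fit and -0.52 to 0.46 in the fit of 9 arrays. Col4a1 had a difference of -0.04, with -0.12 to 0.05 paired and -0.84 to 0.77 over 9 arrays, where its primary values spread from 973 to 3267. Col2a1 had -0.23, with -0.48 to 0.02 paired and -0.64 to 0.18 over 9 arrays. For these 3 genes the paired interval held 0.

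The paired interval lay on 1 side of 0 for 6 members: Col1a1, Col1a2 (-0.10), Col18a1 and Col25a1, which were lower, and Col4a2 (0.12) and Col16a1 (0.37), which were higher. Col1a1 differed by -0.23, with -0.40 to -0.06 paired and -0.65 to 0.19 over 9 arrays. Col18a1, at 788, 777 and 865 in treated against 858, 945 and 979.6 in untreated cells, differed by -0.19 (-0.33 to -0.06 paired and -0.54 to 0.15 over 9 arrays). Col25a1, at 382, 379 and 311 against 389, 485 and 407, differed by -0.26 (-0.48 to -0.03 paired and -0.61 to 0.09 over 9 arrays). These 6 are the members with an unadjusted p below 0.05 in the paired limma fit, where 15.0% of all genes had one. None of the 6 passed after adjustment in either fit. Col9a3 had the largest difference among the FACITs, 0.59 (-0.02 to 1.21 paired and -0.04 to 1.23 over 9 arrays), with DKK1-treated replicate 2 high at 209.9. Col11a2 differed by 1.02 (-0.27 to 2.32 paired), and by 0.43 without untreated replicate 1 and 1.84 without untreated replicate 2. Col17a1 was dim on all 6 ESC-RPC arrays, so no difference is read from it.

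**Figure D4:**
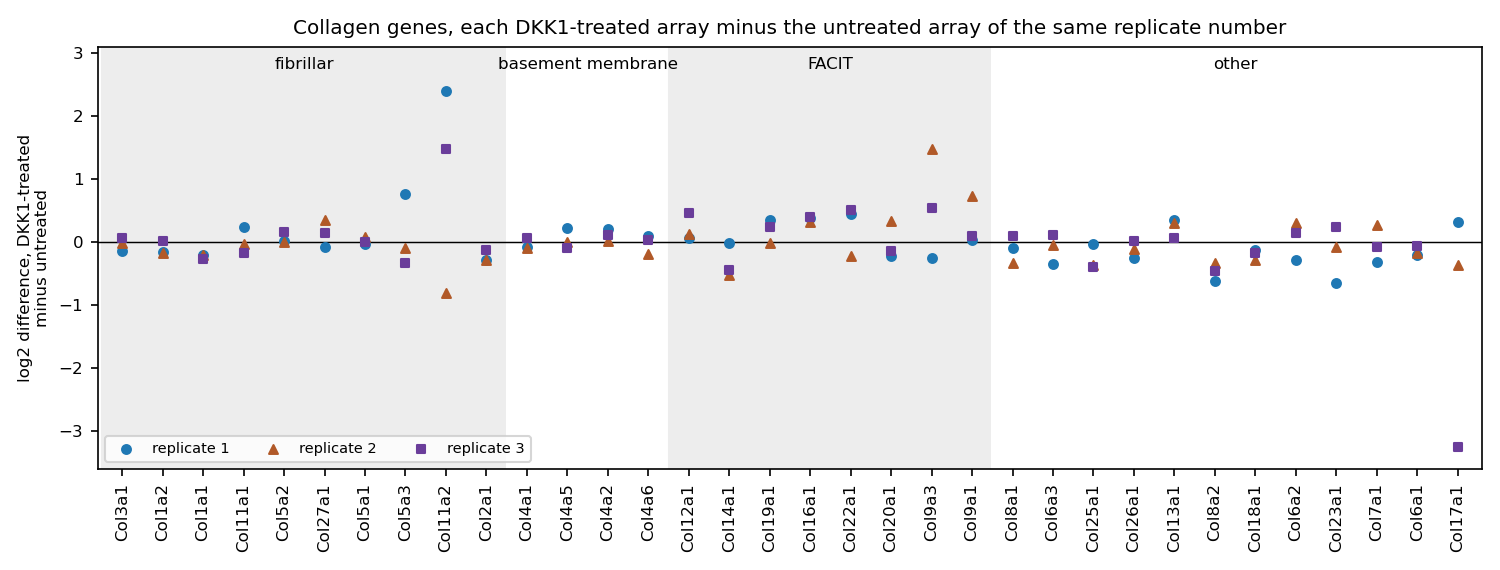
Log2 difference in MAS5 intensity between the DKK1-treated and the untreated array of the same replicate number (vertical axis) for each collagen gene that passed, with 1 symbol per replicate. Most points lie near 0; the points farthest from it belong to Col17a1, dim on all 6 of these arrays, and to Col11a2 and Col9a3.

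Collagen chains are modified, folded, trimmed and cross-linked by a set of enzymes and chaperones, and these were read from a list of 36 genes on the array, of which 32 passed. Untreated ESC-RPCs had 19 of them higher, 4 lower and 9 not called against primary RPCs (median log2 difference 0.74 against -0.0068 over all genes), where 26.1% of all genes were higher and 26.9% lower. The counts by step below read against the same shares. DKK1-treated cells had 19 higher, 2 lower and 11 not called, with the primary arrays shared, and no member of the list was called between the ESC-RPC groups.

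Proline hydroxylation lets the triple helix hold at body temperature, and of 9 genes of that step 6 were higher, 1 lower and 2 not called. P4ha3, a prolyl 4-hydroxylase subunit, measured 118, 91.0 and 143 and was at least 2.44-fold higher than in primary RPCs. P4ha2, another such subunit, rose by 1.39 ± 0.18, and P4hb, the shared second subunit, by 0.62 ± 0.06. Ppib, a proline isomerase of the helix, fell by 0.53 ± 0.07. Of 5 genes of lysine hydroxylation and glycosylation, Plod1 rose by 0.67 ± 0.16, and the galactosyltransferases Colgalt1 and Colgalt2 fell by 0.43 ± 0.11 and 2.10 ± 0.36. Of 5 genes of folding and export, Fkbp14 rose by 1.40 ± 0.26 and the rest were not called. Serpinh1, the collagen chaperone Hsp47, measured 3331, 3218 and 4061 against 6333, 3498 and 4517 (limma adjusted p = 0.104), and its groups overlapped.

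Steps outside the cell were mostly higher. Of 5 genes of propeptide removal, the enhancer Pcolce measured 1335, 1479 and 1495 against 479.8, 396 and 341 (log2 difference 1.84 ± 0.13). The proteases Bmp1 and Adamts3 rose by 1.06 ± 0.10 and 1.66 ± 0.21, and Pcolce2 by 2.33 ± 0.54. Tll1, a relative of Bmp1, fell by 1.45 ± 0.47. All 3 cross-linking oxidases that passed were higher, with Lox at least 2.07-fold higher and Loxl1 and Loxl3 up by 0.93 ± 0.21 and 0.57 ± 0.14.

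The proteoglycans that coat fibres showed the largest rises of this list, with 4 of 5 higher. Dcn (decorin) measured 3686, 4431 and 3516 in untreated ESC-RPCs against 47.2, 65.2 and 41.0 in primary RPCs (log2 difference 6.27 ± 0.18, limma adjusted p = 3.48e-09). Lum (lumican) measured 846, 1101 and 903 and was at least 19.9-fold higher, Bgn (biglycan) rose by 1.95 ± 0.22, and Ogn was at least 1.96-fold higher.

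**Figure D5:**
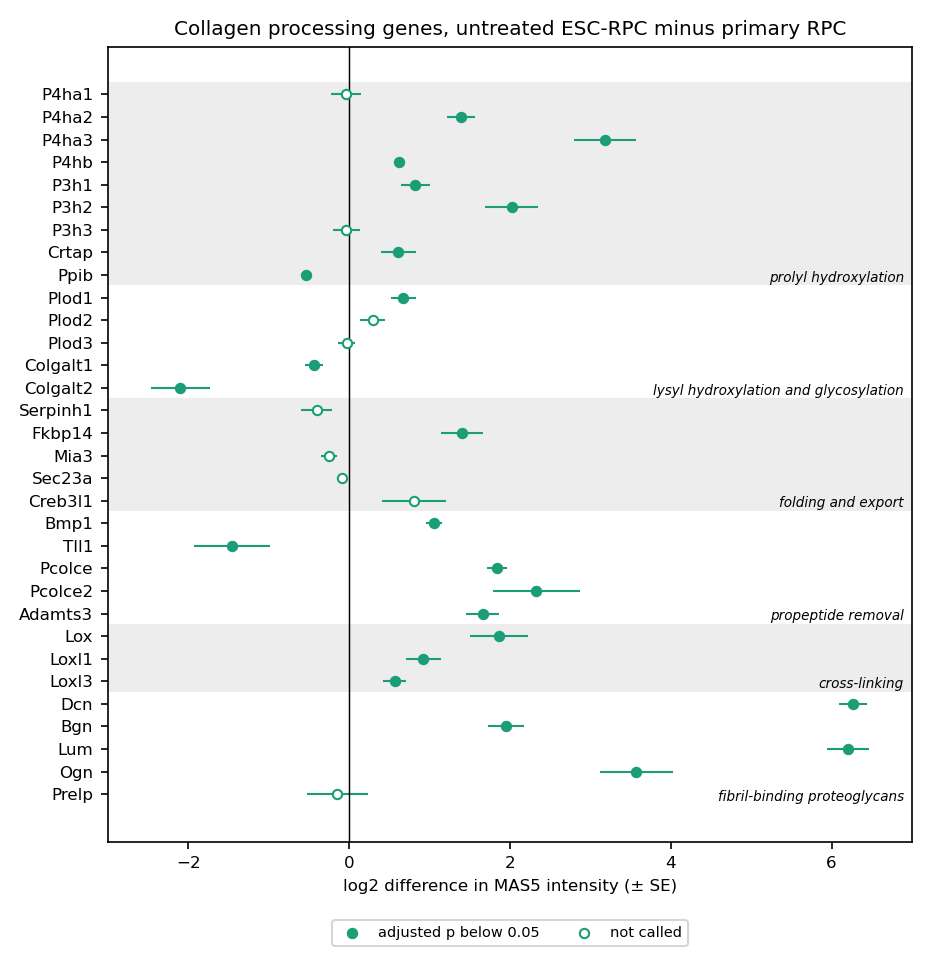
Log2 difference in MAS5 intensity, untreated ESC-RPCs minus primary RPCs (horizontal axis), for 32 genes of collagen modification, folding, trimming, cross-linking and fibre binding, grouped by step, with bars of 1 SE from limma. Filled points had an adjusted p below 0.05; Dcn (6.27) and Lum lie farthest right and Colgalt2 farthest left.

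Of 19 collagen receptor and degradation genes on the array 14 passed, with 6 higher, 1 lower and 7 not called in untreated ESC-RPCs (8 higher and 1 lower in DKK1-treated cells). With 53.0% of all genes called, 7 of 14 is close to the background. Mrc2, which takes up collagen fragments, measured 516, 489.8 and 501 against 86.5, 86.5 and 88.9 (log2 difference 2.52 ± 0.13). Ddr2, a receptor kinase for fibrillar collagen, rose by 2.17 ± 0.38, whereas Ddr1 was not called (-0.27 ± 0.11, adjusted p = 0.0557). Fap, a fibroblast protease, measured 522, 646 and 475 and was at least 11.5-fold higher. Mmp14, a membrane-bound collagenase, went the other way, at 627, 932 and 802 against 2531, 2360.1 and 2587 (-1.68 ± 0.14), while the gelatinase Mmp2 rose by 1.54 ± 0.20.

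Mesenchyme markers other than collagens were mostly higher in ESC-RPCs. Dcn and Lum stand in this list and among the processing genes above, so they are not separate evidence. Dcn weighs heavily in the sums below, at 3516 to 4431 in untreated ESC-RPCs against 41.0 to 65.2 in primary RPCs. The counts of marker lists are for untreated cells and stand beside 26.1% of all genes higher and 26.9% lower, with lists of 4 to 11 genes that passed. Of 14 on the array 11 passed, 8 higher and 2 lower in untreated ESC-RPCs, and their summed intensity was 11481 to 13061 in untreated and 11911 to 13092 in DKK1-treated ESC-RPCs against 4107 to 6076 in primary RPCs. Postn, Prrx1, Twist1 and Lum were dim on every primary array, as were Twist2, Tcf21 and Meox1, and the last 2 were dim in all groups. Thy1 and Tagln were lower in ESC-RPCs, and Acta2 was not called. Of 8 markers of extraembryonic endoderm 7 passed and 3 were higher (5 in DKK1-treated cells, with Gata4 and Gata6), with sums of 1197 to 1600.4 in untreated ESC-RPCs, 1193 to 1694 in treated ones and 298 to 451 in primary RPCs. Foxa2 (407, 434 and 564) and Sox17 (359, 214 and 345) were at least 9.79-fold and 6.29-fold higher in untreated cells, while Afp was dim on all arrays. Sox7 went the other way but was not called (log2 difference -1.07 ± 0.42, limma adjusted p = 0.0524). It was dim on all ESC-RPC arrays and measured 61.0, 110 and 52.2 in primary RPCs. Of 7 cartilage markers 4 passed and 2 were higher, with sums of 305.5 to 321, 223 to 351 and 129 to 205 in the same order. Matn1, Hapln1 and Epyc, which mark cartilage, were dim on all arrays. Of 4 Schwann cell and neural crest markers 2 were higher and 1 lower, and their sums were 1655 to 2002, 1493 to 1983 and 2801 to 3297. Endothelial markers gave 1 higher and 2 lower of 6 that passed, with sums of 562 to 718, 642 to 712 and 6077 to 7808. Kdr alone made 5186 to 7316 of the primary sums, against 67.8 to 80.7 in untreated and 68.4 to 104 in treated ESC-RPCs. Cldn5 was also lower, Emcn was higher, and Pecam1, Flt1 and Esam were not called. Retinal progenitor markers gave 2 higher and 5 lower of 7, and general neural progenitor markers 3 higher and 1 lower of 4 (2 higher and 1 lower in DKK1-treated cells). The part of these cell types in the collagen values was not tested.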

How the data were processed

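RNA of 9 samples, 3 per group, was hybridised to mouse Affymetrix expression arrays. The authors deposited linear MAS5 signal intensities, per the submitters' processing notes, which give no version. Each deposited intensity column had a trimmed mean of 500 and a minimum of 1. Here log2 was taken with no further scaling. Control probe sets were left out, and genes came from the platform annotation, in which 34945 of 45101 probe sets had 1 symbol, 932 had several and 9160 had none.

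A probe set was kept above its array's 40th percentile on at least 3 arrays, and the brightest per gene by mean log2 was used. Group means were fitted over 9 arrays with limma 3.58.1 in R 4.3.3 (lmFit, eBayes with an intensity trend, two-sided), with Benjamini-Hochberg adjustment over 13320 genes. The code of the fit was checked on simulated data with independent noise and 200 changed genes. In the data 7060 genes were called between untreated ESC-RPCs and primary RPCs, so that check does not speak for the accuracy of these calls. The p-values measure the spread between samples the labels call biological repeats. A fold against a group dim on all its arrays is a bound: the brighter group's mean log2 against, per array, the higher of the 40th percentile and the signal.

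Members and lists were chosen with earlier results of these data known. Values per array are given for Col1a1, Col1a2, Col2a1, Col3a1, Col4a1, Col4a2, Col9a1, Col11a1, Col18a1, and up to 5 further members per class by size of difference to primary RPCs. Up to 4 genes with the smallest adjusted p are named per role or marker list, besides markers near background. Other values were chosen after they were seen. Same-numbered DKK1-treated and untreated arrays deviated together (r = 0.123, 0.195 and 0.318 over genes), so they were treated as pairs. This comes from the values, as the labels do not state it. Alternatives changed the scaling, filter, probe set rule, pseudocount, variance model, arrays fitted and replicate block, or left out each array.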

Additional observations from a re-analysis of the deposited data

How the results depend on the processing

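The count of collagens called against primary RPCs was 24 to 31 in both comparisons over all settings tried, with 24 under a 60th percentile filter, and 27 to 29 (untreated) and 26 to 31 (DKK1-treated) when each array was left out. Between the ESC-RPC groups it was 0 in every setting, including the replicate block on 6 arrays, which pairs same-numbered arrays. Over all genes that block gave 65 calls and the fit without an intensity trend 1, against 0. The block on 9 arrays gave 29, 31 and 0 collagens and changed no other call of a collagen. Against primary RPCs the sign changed for Col20a1 alone, which was not called. For untreated cells Col20a1 was 0.0086 after quantile normalisation and 0.0277 with arrays set to one median, and -0.396 to 0.3367 with each array left out. For DKK1-treated cells Col20a1 was 0.0049 with one median and -0.4034 to 0.3293 with each array left out. Between the ESC-RPC groups, where differences lay near 0, signs changed as follows. With one median Col11a1 was -1e-04. With the mean of probe sets Col12a1 was -0.0436, Col27a1 -0.0979, Col3a1 0.0205, Col4a1 0.0013 and Col8a1 0.1523. With each array left out Col11a1 ran from -0.0723 to 0.07, Col1a2 from -0.2176 to 0.0157, Col3a1 from -0.1054 to 0.0396, Col4a1 from -0.1739 to 0.0526, Col4a5 from -0.0481 to 0.2113 and Col4a6 from -0.0604 to 0.037. Col5a1 ran from -0.0788 to 0.0886, Col5a2 from -0.0548 to 0.1817, Col5a3 from -0.2866 to 0.3777, Col8a1 from -0.2857 to 0.0063 and Col9a1 from -0.0087 to 0.439. The cause was not tested. Among members that passed, calls against primary RPCs lost or gained by processing were those of Col23a1, Col19a1 and Col22a1 in untreated cells. In DKK1-treated cells they were those of Col5a3, Col14a1, Col19a1, Col23a1 and Col8a2, as given beside them. With no filter, untreated cells had 8 lower calls against 6, of which the basement membrane class held 1 against 0 and the FACITs 3 against 2. Signals near the 40th percentile limit the fold of Col3a1, Col8a1 and Col17a1, and 3 arrays a group limit the precision.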
